A study of Arabidopsis thaliana with 6 samples.

Results

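The 60 genes described here encode cytosolic 40S ribosomal proteins of Arabidopsis thaliana, the proteins of the small ribosomal subunit. They were taken by gene ID from a list of 60 and make up 60 of the 33331 genes in the deposited table. All 60 IDs matched a protein-coding gene of the TAIR10.1 annotation. The list covers 25 proteins (SA to S28), of which 15 had 2 listed genes and 10 had 3. A further 37 genes annotated for 40S proteins were not on it, so sums and shares given for a protein refer to its listed genes. Letters such as RPS23B follow common Arabidopsis usage.

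RNA immunoprecipitation followed by sequencing (RIP-seq) identifies RNAs that co-precipitate with a protein of interest, here AtGRP7, a glycine-rich RNA-binding protein under circadian control. AtGRP7 was fused to green fluorescent protein and driven by its own promoter (AtGRP7::AtGRP7-GFP) in plants of the grp7-1 background, which lack functional AtGRP7 of their own. Both groups carried this construct and this mutation and differ, by their labels, in the time point. Plants raised in light-dark cycles were moved to continuous light (LL), and aerial tissue was fixed with formaldehyde after 36 h (LL36, subjective evening, 3 libraries) or 24 h (LL24, subjective morning, 3 libraries). The comparison asks whether the RNAs recovered with AtGRP7-GFP differ between the subjective evening and the subjective morning. No GFP-only or mock precipitation is among these libraries, so unspecific recovery of abundant RNAs was not measured here. Values of wild-type Col-2 plants in the table matched no sample and were not used here, so transcript amount and recovery with AtGRP7-GFP cannot be told apart in these values, and in whole tissue fewer cells of a type and less RNA per cell cannot be told apart. All 4 markers of aerial tissue were abundant. Of these, 2 did not pass the test (CAB1 with 14070 to 14590 normalised TPM at LL36 and 11500 to 15650 at LL24, and AT5G66570 with 672 to 703 at LL36 and 516 to 638 at LL24) and 2 were called lower at LL36 (AT1G67090 with 8280 to 9574 at LL36 and 11530 to 14910 at LL24, and AT2G39730 with 289 to 315 at LL36 and 823 to 1111 at LL24). No root marker of the 5 examined exceeded 0.125 in any library.

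The 40S subunit binds mRNA and decodes it. It consists of a head and a body, joined by a neck, around the 18S ribosomal RNA, with the path of the mRNA between them. Part of its proteins are found in all domains of life and line the decoding region and the mRNA path, while others are absent from bacteria. In Arabidopsis nearly every ribosomal protein is encoded by several genes, and each ribosome takes up a single copy of each protein, so that the levels of paralogues can be set beside each other within a protein.

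The sequences of the most unequal paralogues are given first, because the comparison of paralogues rests on telling their reads apart. Shown is the start of the coding sequence of RPS23B and RPS23A and of RPS8A and RPS8B (coding bases 1 to 60), and the first stretch of 60 aligned bases without a gap of RPSaA (coding bases 31 to 90) and RPSaB (coding bases 34 to 93), from RefSeq TAIR10.1. Capitals mark the bases at which the paralogues differ.
RPS23B: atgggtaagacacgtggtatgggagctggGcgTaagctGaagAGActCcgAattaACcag
RPS23A: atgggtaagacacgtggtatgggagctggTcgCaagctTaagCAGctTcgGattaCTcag
RPS8A: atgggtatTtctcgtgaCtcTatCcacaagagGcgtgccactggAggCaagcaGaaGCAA
RPS8B: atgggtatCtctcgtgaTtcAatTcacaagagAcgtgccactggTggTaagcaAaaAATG
RPSaA: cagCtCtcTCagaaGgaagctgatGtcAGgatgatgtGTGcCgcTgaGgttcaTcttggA
RPSaB: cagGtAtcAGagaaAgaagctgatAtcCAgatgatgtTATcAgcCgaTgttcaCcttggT
These windows held 10 differences for the S23 pair, 12 for the S8 pair and 16 for the SA pair. Over the whole coding sequence, identity between paralogues ran from 70.4% (RPSaA and RPSaB) to 98.2% (RPS16A and RPS16C) with a median of 85.2% over 45 pairs. Reads were up to 100 nt long, and 52 of the 60 genes had no 100-nt stretch of an annotated transcript that also occurred in a transcript of another gene. Only RPS16A (2.75% of its stretches) and RPS16C (2.10%) shared any with a listed paralogue. With stretches of 50 nt, the shortest read the trimming kept, 40 genes shared none, 10 shared some with a listed paralogue, and the highest share was 15.5% for RPS16A. The 7.94% of RPS19B were shared with AT5G15530, an overlapping gene. In all, 17 of the 60 genes overlap another annotated gene, among them 6 of the 16 genes called below, and their values are less certain, since no source used here says whether reads were assigned by strand.

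Levels are given as normalised TPM, that is transcripts per 1000000 corrected for transcript length, with each library rescaled to the genes listed and divided by a scaling factor, so that levels can be compared between genes as well as between libraries. Among the listed genes, 53 reached a mean of 5 and were tested. Their means reached 676 normalised TPM and had a median of 80.6, and 47 of the 53 lay above the 80th percentile of the 3774 genes tested. The 7 others were low in all libraries. Their means were 4.50 for RPS19B, 3.20 for RPS2D, 2.12 for RPS11B, 1.66 for RPS9C, 0.58 for RPSaB, 0.36 for RPS8B and 0.14 for RPS23A. The lowest tested gene, RPS10A, a gene for a head protein, had 20.1 to 25.5 at LL36 and 16.6 to 20.5 at LL24.

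**Figure D1:**
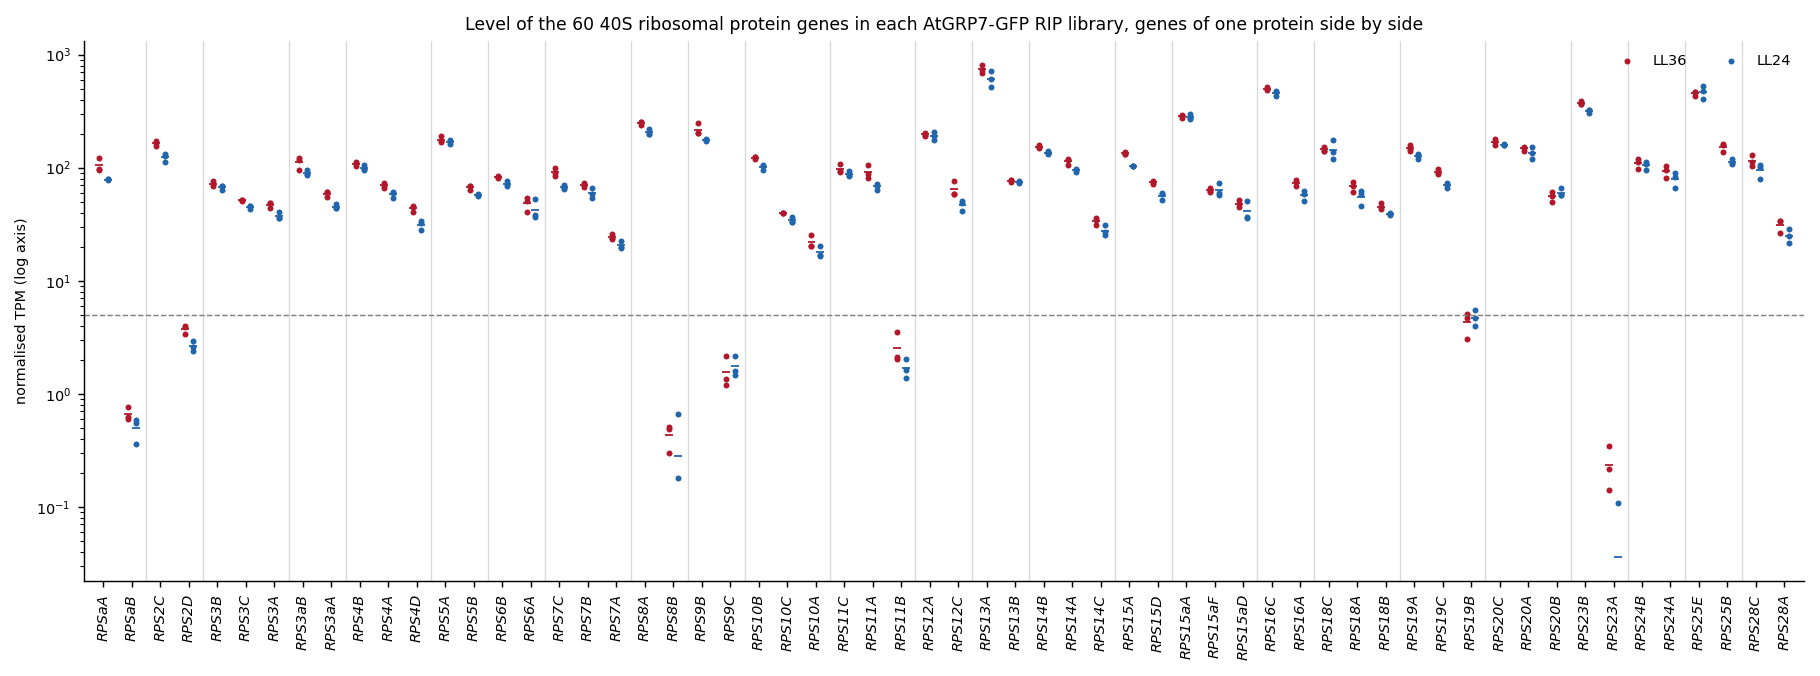
Normalised TPM (log axis) of the 60 genes, grouped by protein and ordered by mean within it, with a point for each of the 3 LL36 libraries (red, left) and 3 LL24 libraries (blue, right) and a short bar at the mean. The dashed line lies at 5, values of 0 (RPS8B in 1 and RPS23A in 2 LL24 libraries) cannot be drawn, and 7 genes have a mean below the line while RPS13A is highest with a mean of 676.

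The highest level was that of RPS13A (AT4G00100; chromosome 4, 36916 to 38384), a gene for the universally conserved protein S13 whose mutants have pointed first leaves. It had 803, 731 and 689 normalised TPM at LL36, against 514, 709 and 612 at LL24, and the groups overlapped through LL24 replicate 2 (log2 difference 0.29, adjusted p = 0.15). RPS16C, for a protein of the head whose tail reaches the tRNA in the P site, had 500, 514 and 484 at LL36, against 431, 481 and 470 at LL24. RPS25E, for a head protein that yeast and animal ribosomes need at internal ribosome entry sites, had 429, 463 and 466 at LL36, against 408, 522 and 472 at LL24. In RPS16C all LL36 libraries lay above all LL24 libraries, but the log2 difference of 0.12 did not pass the threshold (adjusted p = 0.33), and in RPS25E the LL36 values lay within the range of the LL24 values. RPS23B, for the decoding-centre protein S23, had 367, 365 and 389 at LL36, against 306, 323 and 324 at LL24 (log2 difference 0.23, adjusted p = 0.062). RPS15aA had 274, 293 and 288 at LL36, against 271, 299 and 272 at LL24, so its time points could not be separated. RPS8A, for a protein specific to archaea and eukaryotes, was the only gene of these 6 that was called higher, with 253, 254 and 240 at LL36, against 199, 199 and 219 at LL24 (log2 difference 0.28, adjusted p = 0.040). Together the 6 genes held 37.7% of the summed level of the 60.

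Summed over the 60 genes, the level was 6933, 6952 and 7121 normalised TPM at LL36, against 5768, 6306 and 6224 at LL24, a ratio of means of 1.15, and the time points did not overlap. No test was made of this sum. Its direction depended on the scaling. On the TPM as deposited, without a scaling factor, the sums were 943, 1053 and 552 at LL36, against 951, 761 and 1049 at LL24, and overlapped. In the table a single gene that is no ribosomal protein gene, AT2G01021, held 63.5% to 69.8% of the listed TPM. This gene was included when each library was rescaled, so the normalised TPM given here are lower than on a scale without it. The listed TPM as a whole came to 9.59% to 16.6% of 1000000 per library, lowest in LL36 replicate 3. A gene's deposited TPM thus moves with RNAs other than the listed mRNAs. As a plain share of the listed TPM the 60 genes held 0.758%, 0.715% and 0.575% at LL36, against 0.705%, 0.558% and 0.633% at LL24. Without AT2G01021 the shares were 2.28%, 2.37% and 1.58% at LL36, against 2.01%, 1.69% and 1.93% at LL24. Under both shares the time points overlapped. With median-of-ratios factors the sums were 6907, 6899 and 7118 at LL36, against 5790, 6360 and 6221 at LL24. Rescaled without the 10 highest genes they were 39720, 40370 and 38600 at LL36, against 32410, 33480 and 34320 at LL24.

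**Figure D2:**
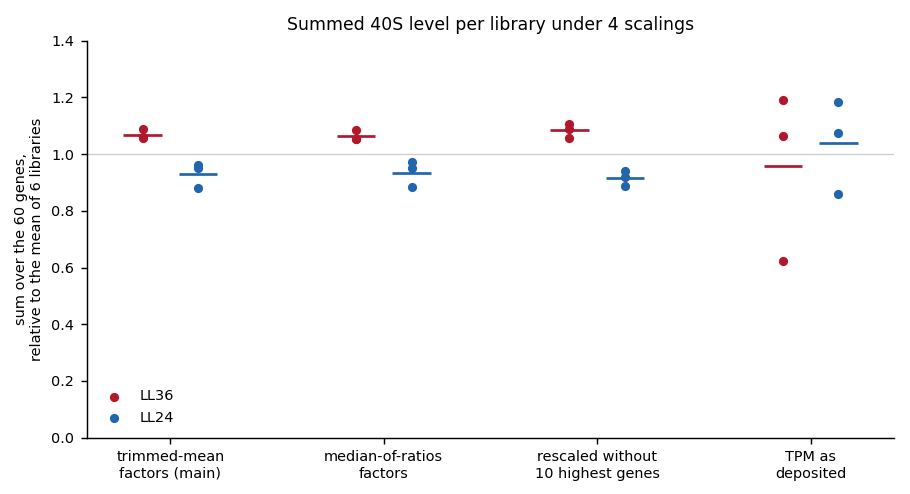
Sum over the 60 genes per library, relative to the mean of the 6 libraries on the same scale, under 4 scalings (LL36 red, left; LL24 blue, right; bars at the mean of 3). The time points are apart under the first 3 scalings and overlap on TPM as deposited, where LL36 replicate 3 is lowest. They also overlap as plain shares of the listed TPM, with or without AT2G01021, which are not drawn.

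Between the time points, nearly all 40S genes had a somewhat higher mean at LL36, and a minority of these differences passed the test. Of the 53 tested genes, 16 were called higher at LL36 and 0 lower, 37 did not pass the threshold (limma, Benjamini-Hochberg adjusted over all tested genes), and 29 had an unadjusted p under 0.05, all of them with a positive difference. For comparison, 36.2% of all 3774 tested genes were called, 16.6% higher and 19.6% lower. The called share of the 40S genes, 30.2%, thus lay near that of all genes, while all of its calls had the same direction. The log2 difference was positive in 51 genes and negative in 2, with a median of 0.24 (a fold of 1.18), beside 0.03 over all tested genes. The quartiles were 0.13 and 0.32 for the 40S genes and -0.32 and 0.305 for all tested genes. No 40S gene reached a log2 difference of 0.5 in either direction, which 31.6% of all tested genes did. In 32 of the 53 genes all LL36 libraries lay above all LL24 libraries and in 0 below, beside 24.7% above and 25.9% below among all tested genes. These differences are relative to the other listed genes. On TPM as deposited, where the median of all tested genes moved to -0.26, 12 of the 49 tested 40S genes had a positive and 37 a negative difference, their median was -0.11, 0.15 above that of all genes, and 0 were called in either direction by limma (0 with an unadjusted p under 0.05), with 126 of 789 tested genes called in all.

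**Figure D3:**
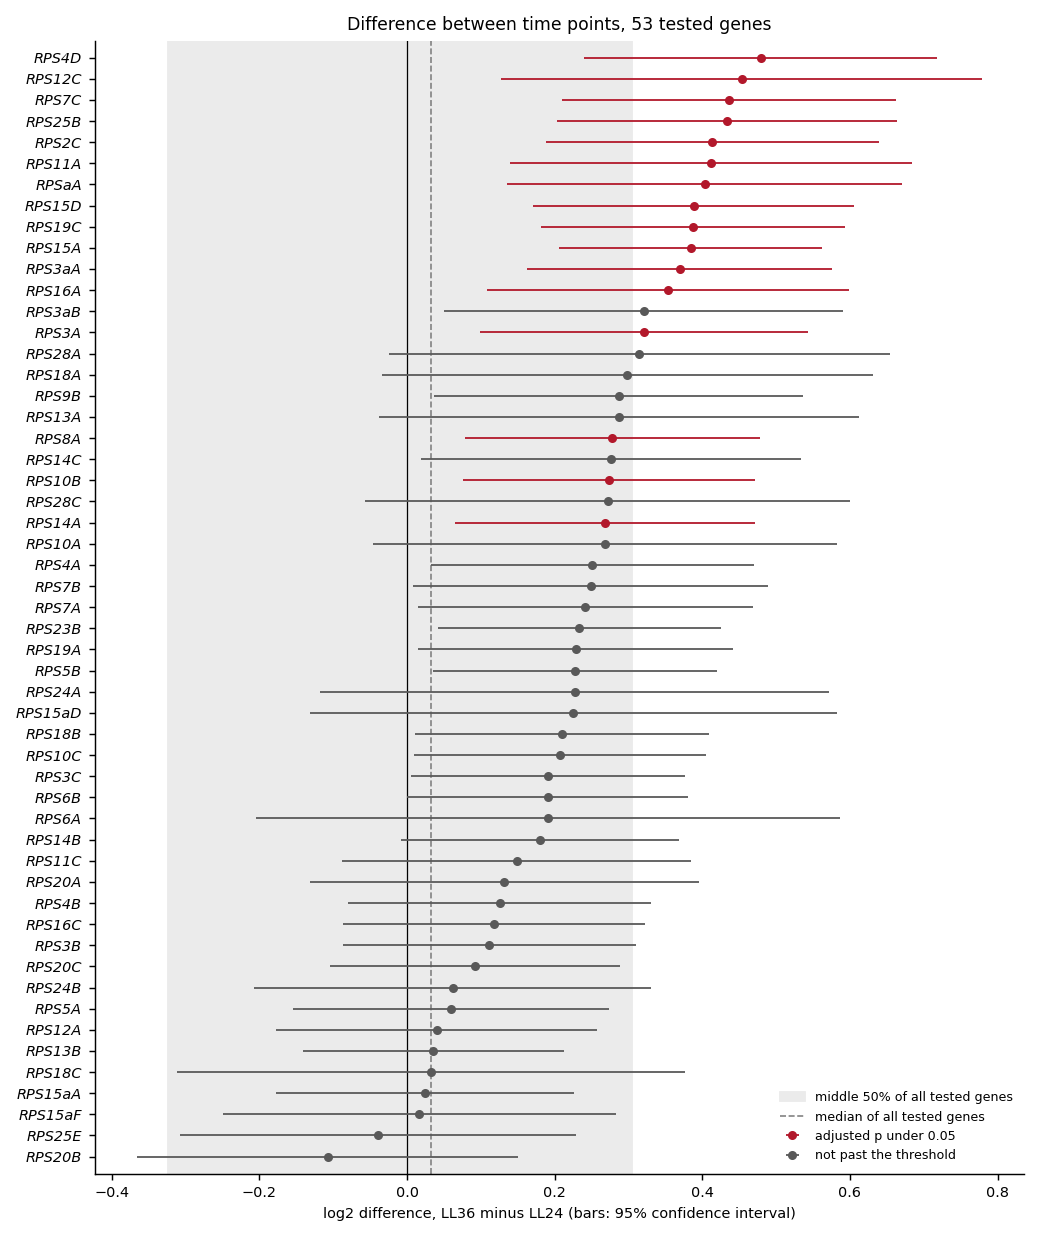
Log2 difference (LL36 minus LL24, on log2 of normalised TPM + 1) of the 53 tested genes with 95% confidence intervals from limma, genes called at an adjusted p under 0.05 in red and the others in grey. The dashed line is the median of all tested genes (0.03) and the shaded band their middle 50%. The points run from -0.11 (RPS20B) to 0.48 (RPS4D).

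The largest increase was that of RPS4D (AT5G58420; chromosome 5, 23619459 to 23621094), for the body protein S4, with 45.1, 46.1 and 40.7 normalised TPM at LL36, against 32.2, 28.3 and 33.4 at LL24. The log2 difference was 0.48 ± 0.10 (SE, n = 3 each), a fold of 1.39 with a 95% interval of 1.18 to 1.64 (adjusted p = 0.010). RPS12C (AT2G32060; chromosome 2, 13638762 to 13640431), for a protein at the beak of the head, had 58.7, 59.0 and 76.8 at LL36, against 48.4, 41.5 and 50.7 at LL24 (log2 difference 0.45 ± 0.14, adjusted p = 0.041). Its highest value came from LL36 replicate 3, and it was called in 0 of the 6 fits that left out a library. RPS7C (AT5G16130), for the body protein S7, had 84.4, 89.997 and 99.9 at LL36, against 70.8, 64.5 and 66.4 at LL24 (0.44 ± 0.10, adjusted p = 0.012). Its values did not overlap, and the call was lost in 1 of the 6 leave-out fits.

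RPS25B (AT2G21580), the lower of both S25 genes, had 138, 161 and 159 at LL36, against 111, 119 and 108 at LL24 (log2 difference 0.43 ± 0.10, adjusted p = 0.013). RPS2C (AT2G41840), for a protein at the mRNA entry that is known from bacteria and yeast to act on decoding accuracy, had 156, 165 and 173 at LL36, against 112, 131 and 127 at LL24 (0.41 ± 0.09, adjusted p = 0.015). RPS11A (AT3G48930) had 81.5, 88.2 and 105 at LL36, against 71.5, 63.9 and 69.2 at LL24 (0.41 ± 0.12, adjusted p = 0.031). In each of these 3 genes the time points did not overlap. RPS25B and RPS2C were called in all 6 leave-out fits, RPS11A in 1. The other genes called in all 6 were RPS4D and RPS15A. RPS15A, for a head protein beside the A site, had the smallest adjusted p of the group (133, 132 and 139 at LL36, against 103, 103 and 103 at LL24; log2 difference 0.38, adjusted p = 0.0076).

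The remaining called genes were RPSaA, RPS15D, RPS19C, RPS3aA, RPS16A, RPS3A, RPS10B and RPS14A, with log2 differences of 0.27 (RPS14A) to 0.40 (RPSaA) and adjusted p of 0.014 to 0.048. RPSaA encodes the 40S counterpart of the protein known in animals as a laminin receptor, RPS19C the head protein whose human counterpart is mutated in Diamond-Blackfan anemia, and RPS3A a protein of the mRNA entry channel. In all 16 called genes the LL36 libraries lay above the LL24 libraries. Of the 37 genes that were not called, 16 did not overlap either, 35 had a positive log2 difference, and the median was 0.19.

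At the other end, the smallest differences were those of RPS15aF, RPS15aA, RPS18C and RPS13B. RPS15aF had 61.3, 66.1 and 62.6 at LL36, against 59.4, 56.9 and 72.5 at LL24 (log2 difference 0.02, 95% interval -0.25 to 0.28). RPS18C, a head protein gene at an intersubunit bridge, had 142, 152 and 142 at LL36, against 119, 175 and 136 at LL24 (0.03, interval -0.31 to 0.38). RPS13B had 75.3, 77.1 and 77.2 at LL36, against 74.9, 73.5 and 75.4 at LL24 (0.04, interval -0.14 to 0.21). The LL24 values of RPS18C spread far more than those of RPS13B, so the interval of RPS18C still holds the median of the group while that of RPS13B ends below it. The only negative values, in RPS20B (-0.11, interval -0.37 to 0.15) and RPS25E (-0.04, interval -0.31 to 0.23), had intervals that included 0.

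Called genes were found among all classes of 40S protein. Among genes for proteins conserved in all domains of life, 8 of 29 tested were called higher and 0 lower (median log2 difference 0.23), and among those for proteins absent from bacteria 8 of 24 and 0 (median 0.26). By position, 8 of 26 head genes (median 0.23) and 8 of 27 body genes (median 0.25) were called higher. The S6 genes, whose product is the target of S6 kinase in TOR signalling, were not called (RPS6A 0.19, adjusted p = 0.41; RPS6B 0.19, adjusted p = 0.11). The 40S genes that were not on the list showed 6 higher and 0 lower of 28 tested (median 0.25), the 60S genes 37 and 0 of 121 (median 0.25), the nuclear genes for plastid ribosomal proteins 11 and 0 of 38 (median 0.21) and the eEF1 subunit genes 2 and 0 of 9 (median 0.19). The called share of these groups ran from 21.4% (other 40S genes) to 33.3% (proteins absent from bacteria). Over all 3774 tested genes it was 36.2%, with 16.6% higher and 19.6% lower. No difference between these groups was tested.

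Added up by protein, the listed genes were higher at LL36 in mean for all 25 proteins on this scale, and the libraries of both time points did not overlap for 16. Among all 3774 single genes tested, 24.7% lay apart with LL36 above and 25.9% with LL36 below. No such share was computed for sums of other genes, and these sums hold the same genes as counted above. The ratios of the means ran from 1.03 (S15a) to 1.33 (SA and S2). The family sums themselves spanned 8.17-fold, from 92.0 normalised TPM for SA to 752 for S13. S25 (593), S16 (545), S15a (391), S20 (363) and S23 (346) followed S13. Genes not on the list added over 2% to the sum of 2 proteins, S28 (134 for the listed genes, against 353 with the other gene) and S2 (147 for the listed genes, against 211 with the other 4).

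Which listed paralogue was highest never changed. In each of the 25 proteins the same listed gene led in 6 of 6 libraries. The order was also the same in all libraries in all 45 pairs. For S28 a gene not on the list was higher, with a mean of 219 normalised TPM, against 105 for RPS28C. With that gene included, RPS28C held 29.9% of the mean sum. In 5 proteins the leading gene held over 97% of the family sum at both time points. RPS23B held 99.9% at LL36 and 99.99% at LL24, with a mean 2555 times that of RPS23A, which had 0.22, 0.14 and 0.35 normalised TPM at LL36, against 0, 0 and 0.11 at LL24. RPS8A held 99.8% and 99.9%, RPSaA 99.4% and 99.4%, RPS9B 99.3% and 99.0%, and RPS2C 97.8% and 97.9% at LL36 and LL24. With the S2 genes that were not listed, RPS2C held 68.4% of the mean sum. These ratios rest on low values of the minor genes, whose read counts are not known.

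In other proteins the genes were close. RPS20C was 1.16 times as high as RPS20A, RPS11C 1.16 times RPS11A, RPS7C 1.22 times RPS7B and RPS24B 1.24 times RPS24A in mean, and in 8 proteins the leading gene held under 60%. RPS20C nevertheless led RPS20A in every library, with 159, 170 and 179 at LL36, against 158, 158 and 160 at LL24, beside 141, 153 and 149 at LL36 and 118, 152 and 136 at LL24 for RPS20A. Intermediate cases were S13 (RPS13A 90.6% at LL36 and 89.0% at LL24), S16 (RPS16C 87.2% and 89.0%), S25 (RPS25E 74.8% and 80.5%) and S12 (RPS12A 75.3% and 80.3%). For S5, RPS5A, which is known for its expression in dividing cells, held 72.5% at LL36 and 74.8% at LL24.

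**Figure D4:**
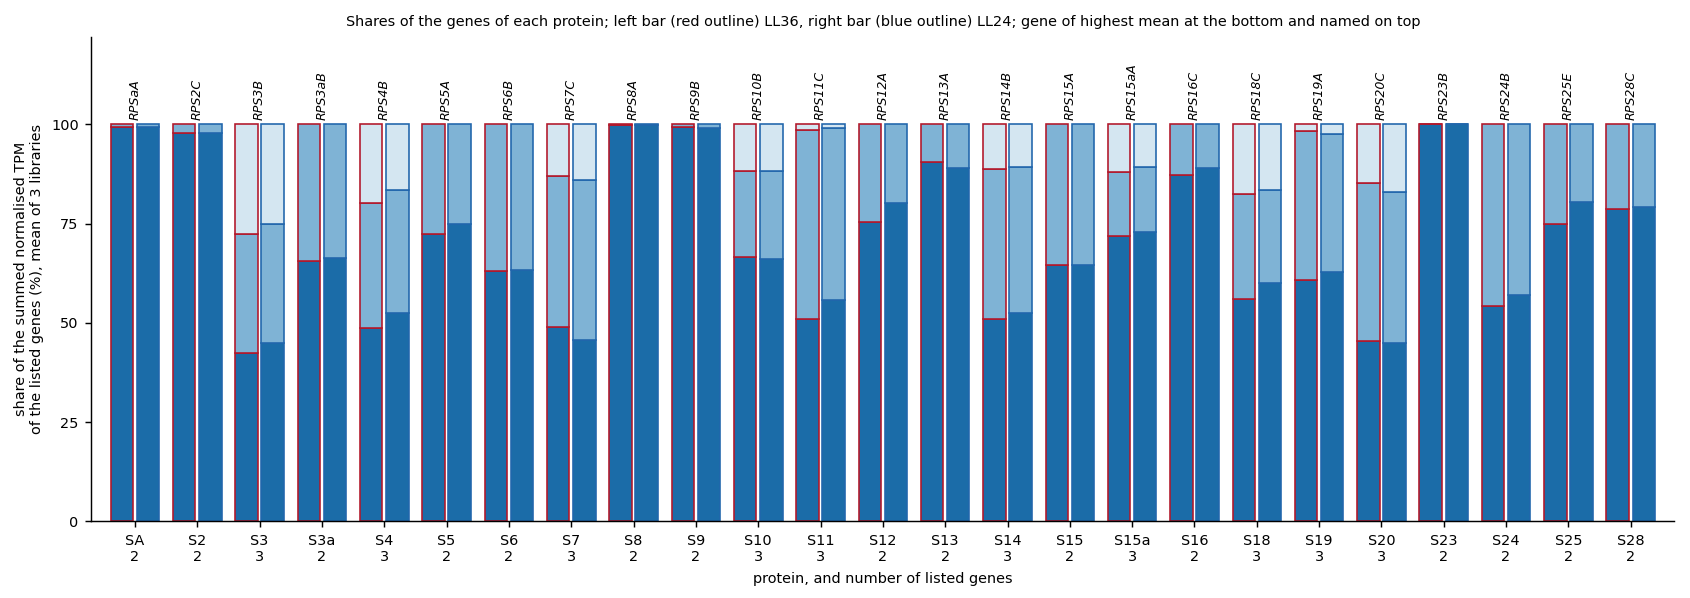
Share of the summed normalised TPM of the listed genes of each of the 25 proteins taken by each gene, as the mean of 3 libraries, LL36 in the left bar (red outline) and LL24 in the right bar (blue outline), leading gene at the bottom and named above. The leading gene is the same in both bars everywhere, and its share ranges from 42.4% (RPS3B at LL36) to 99.99% (RPS23B at LL24).

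The ratio of paralogues within a library does not depend on the scaling apart from the pseudocount, so it was compared between time points for all 45 pairs (log2 ratio of normalised TPM + 1, exact permutation test, two-sided, adjusted over 45 pairs). With 3 against 3 libraries no p-value below 0.1 is possible. It was reached by 12 pairs, and the smallest adjusted value was 0.375, so that no pair could pass. Among the 36 pairs with both genes tested, the ratios of the time points did not overlap in 9. Values that do not differ separate in this way with a probability of 0.1, and pairs that share a gene are not independent. Levels of single genes did not overlap in 50.7% of all 3774 tested genes, but no such share was computed for ratios of other genes. The shift was under 0.1 on the log2 scale in 15 of the 36 pairs, and the median size of the shift was 0.16.

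The largest shift was that of S25. The log2 ratio of RPS25B to RPS25E was -1.63, -1.52 and -1.54 at LL36, against -1.87, -2.12 and -2.12 at LL24, a shift of 0.47, with no overlap. The share of RPS25E in the sum of both was accordingly 74.8% ± 0.78 at LL36 and 80.5% ± 1.6 at LL24 (SD, n = 3 each). For S12, RPS12A to RPS12C gave 1.69, 1.76 and 1.34 at LL36, against 1.85, 2.30 and 1.88 at LL24 (shift -0.41, no overlap). RPS4B to RPS4D gave 1.31, 1.13 and 1.403 at LL36, against 1.56, 1.86 and 1.48 at LL24 (shift -0.35, no overlap). In each of these 3 pairs the higher gene of the pair held less of the sum at LL36.

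RPS18A to RPS18C gave -1.03, -1.31 and -0.90 at LL36, against -1.01, -1.90 and -1.13 at LL24 (shift 0.27), where the low LL24 value came from replicate 2. RPS11A to RPS11C gave -0.19, -0.04 and -0.05 at LL36, against -0.27, -0.53 and -0.27 at LL24 (shift 0.26, no overlap). RPS13A to RPS13B gave 3.40, 3.23 and 3.14 at LL36, against 2.76, 3.25 and 3.003 at LL24 (shift 0.25). Of these 3 pairs, the first and the last overlapped between time points. The S16 genes, with 98.2% coding identity, gave -2.73, -2.72 and -2.81 for RPS16A to RPS16C at LL36, against -3.05, -3.01 and -2.91 at LL24 (shift 0.24, no overlap). RPS15A to RPS15D shifted by less than 0.01, the only protein with several tested genes of which all were called. Of the 20 proteins with several tested genes, 11 had called and uncalled genes side by side, which is no test of a difference between them.

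**Figure D5:**
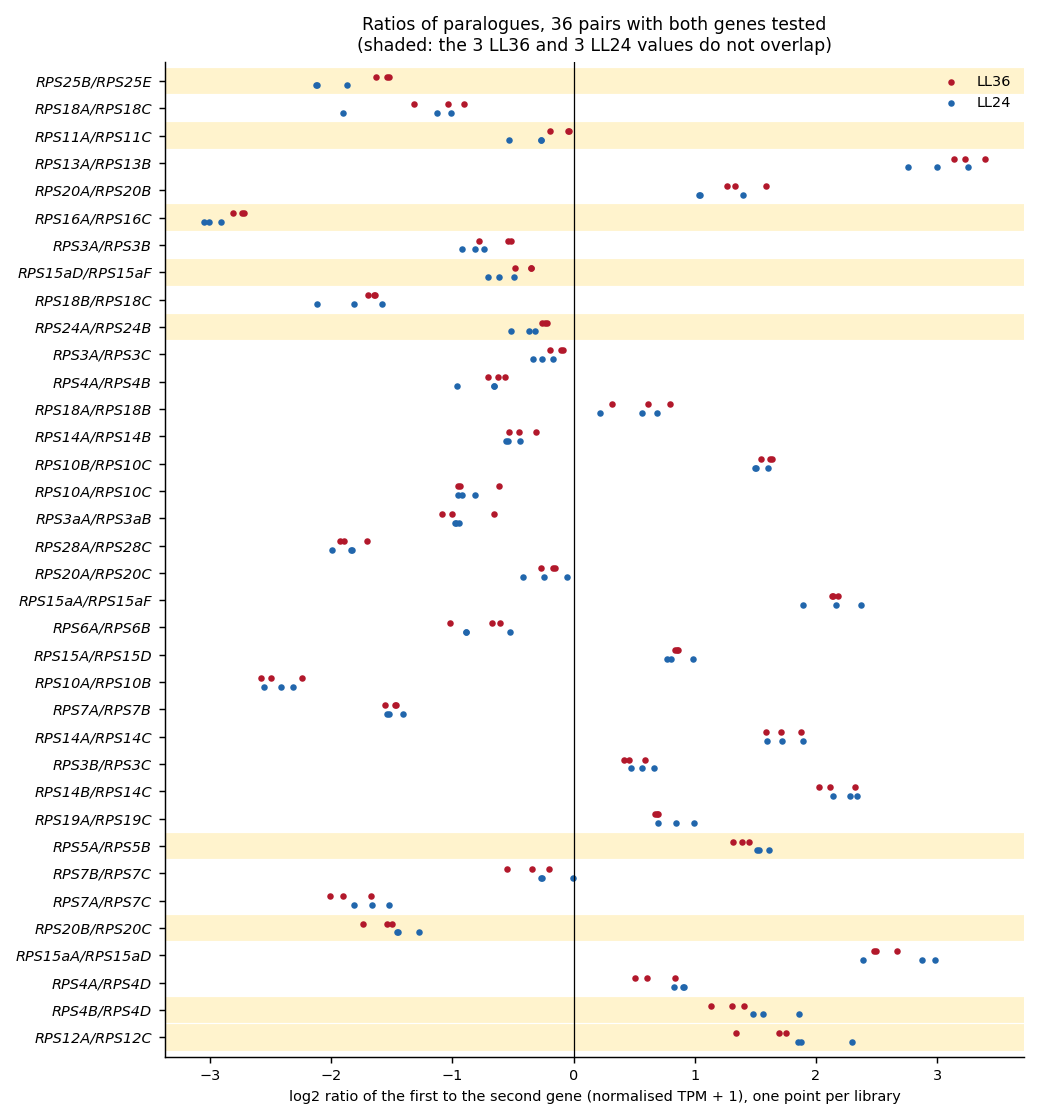
Log2 ratio of the first to the second gene for the 36 pairs with both genes tested, a point per library (LL36 red, upper; LL24 blue, lower), sorted by the shift between time points. The 9 shaded pairs do not overlap between time points, and RPS25B/RPS25E at the top has the largest shift (0.47).

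Site II and the telo-box are known elements of plant ribosomal protein promoters. The promoters of S23 and S8 are shown because their genes had the most unequal levels of all pairs. Each is 250 bases before and 50 after the annotated start in RefSeq TAIR10.1, on the minus strand and read 5′ to 3′ (RPS23B chr5:694466-694765, RPS23A chr3:2970322-2970621, RPS8A chr5:6853057-6853356, RPS8B chr5:23903718-23904017). Capitals mark site II (TGGGCC or TGGGCT) and the telo-box (AAACCCTA) on either strand.
RPS23B: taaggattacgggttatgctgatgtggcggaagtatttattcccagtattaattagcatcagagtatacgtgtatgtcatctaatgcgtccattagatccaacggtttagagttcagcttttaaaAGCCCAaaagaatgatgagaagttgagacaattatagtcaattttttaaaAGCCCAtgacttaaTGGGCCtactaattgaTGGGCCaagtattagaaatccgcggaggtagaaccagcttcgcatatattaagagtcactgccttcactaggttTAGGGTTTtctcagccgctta
RPS23A: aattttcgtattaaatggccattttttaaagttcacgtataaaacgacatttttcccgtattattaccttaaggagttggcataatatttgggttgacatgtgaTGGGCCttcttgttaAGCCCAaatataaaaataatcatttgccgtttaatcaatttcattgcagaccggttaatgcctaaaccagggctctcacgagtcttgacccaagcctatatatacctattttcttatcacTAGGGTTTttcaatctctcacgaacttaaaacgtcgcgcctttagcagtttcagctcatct
RPS8A: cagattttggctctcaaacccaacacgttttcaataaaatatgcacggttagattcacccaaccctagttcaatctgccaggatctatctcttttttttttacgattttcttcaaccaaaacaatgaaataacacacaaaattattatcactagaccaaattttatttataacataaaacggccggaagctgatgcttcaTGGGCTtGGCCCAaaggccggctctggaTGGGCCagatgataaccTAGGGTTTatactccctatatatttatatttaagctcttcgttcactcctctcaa
RPS8B: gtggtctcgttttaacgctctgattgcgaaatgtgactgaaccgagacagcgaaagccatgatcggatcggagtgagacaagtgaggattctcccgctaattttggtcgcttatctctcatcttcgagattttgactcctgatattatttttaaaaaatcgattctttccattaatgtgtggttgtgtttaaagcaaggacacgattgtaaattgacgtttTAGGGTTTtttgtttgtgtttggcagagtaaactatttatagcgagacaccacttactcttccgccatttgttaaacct
RPS23B held 4 site II matches and 1 telo-box, RPS23A 2 and 1, RPS8A 3 and 1, and RPS8B 0 and 1. The low RPS23A thus held both motifs, as did the high RPS23B. Over all 60 genes, 41 had a site II match (68.3%), beside 81.8% of the 60S genes and 21.7% of 27443 promoters of the same length. A telo-box was found in 33 (55.0%), beside 49.6% and 6.2%. Among promoters of tested genes the shares were 32.9% for site II and 7.2% for the telo-box. Both motifs were found in 26 of the 60, beside 2.20% of all promoters. TATAAA on either strand occurred in 45 of the 60, beside 52.1% of all promoters. TCTTCTTC, searched only in the direction of the transcript, occurred in 2 (3.3%, beside 6.4%). As 250 bases of each window lie before the start, this count does not describe the transcripts. A match is a description of these letters only. Median levels were 96.5 normalised TPM in the 26 genes with both motifs and 63.8 in the 12 with neither. Of these 12, only 9 reached the limit. Among the 6 highest genes, RPS13A and RPS16C had neither motif, RPS25E, RPS23B and RPS8A had both, and RPS15aA had site II alone. Called higher were 8 of 25 tested genes with both, 13 of 38 with site II, 10 of 31 with a telo-box and 1 of 9 with neither. Beside these stand 16 of all 53 tested 40S genes (30.2%) and 16.6% of all tested genes, and no difference between these was tested. Of the 7 genes below the limit, 3 had site II and 2 a telo-box.

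The genes had 1 to 7 exons, RPS16A being the single gene with 1, and the median transcript lengths ran from 538 to 1330 nt with a median of 936. Across the 60 genes, level and transcript length had a Spearman correlation of -0.22, and across the 53 tested genes the log2 difference and the level one of -0.23. Both are across genes of the same 6 libraries, which are not independent replicates.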

How the data were processed

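RIP-seq libraries of AtGRP7-GFP from aerial tissue were compared, 3 at LL36 and 3 at LL24, with groups and replicate numbers taken from the sample titles. The labels call them biological replicates, with no word on separate plantings or days, so p-values measure the spread between these samples. The authors trimmed reads with Sickle, aligned them with STAR 2.5.2a to AtRTD transcripts, estimated abundances with Salmon 0.8.2, summed them per gene, and left out rRNA and organelle genes. The deposited unit was TPM per gene, whose listed sum was 9.59% to 16.6% of 1000000. TPM holds no read counts, so depth is unknown and no counting interval is given. A further 6 columns, named for Col-2 plants at LL24 and LL36, matched no sample in the labels and were not used, so enrichment over their RNA was not analysed here.

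Each library was rescaled to sum to 1000000 over the listed genes and divided by an unweighted trimmed-mean-of-log-ratios factor (30% of ratios and 5% of abundances trimmed at each end). Factors were 1.09, 1.03 and 0.808 for LL36 and 1.22, 0.885 and 1.02 for LL24. Genes with a mean of 5 or more before the factor were tested on log2(normalised TPM + 1) with limma 3.58.1 in R 4.3.3 (eBayes with trend, two-sided, Benjamini-Hochberg over all 3774 genes at 0.05), fitted on time point alone. Fold changes are on that scale and understate changes of low genes. The 60S and plastid lists were taken from annotation names, and the list of other 40S genes was checked against the annotation. The eEF1 list and the grouping by conservation and position came from general knowledge. The members, lists and tests were chosen with earlier results of these data known. Values in every library are given for the 6 highest genes, the 6 largest increases without overlap, the 4 smallest differences, the 6 pairs with the largest shifts, and a few genes chosen after their values were seen (RPS15A, RPS20A, RPS20C, RPS23A and the S16 pair). RPS20B, RPS6A, RPS6B, RPS5A and RPS10A, with differences, shares or ranges alone, were also chosen then. Sequences were read from RefSeq TAIR10.1, whose gene IDs match the table's, and aligned with Biopython 1.88. Alternatives in scaling, pseudocount, limit, variance model and libraries were run.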

Additional observations from a re-analysis of the deposited data

How the results depend on the processing

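The 16 calls among the 40S genes were all increases under every alternative that made calls. Their number was 0 on TPM as deposited, 13 on the deposited scale with trimmed-mean factors, 15 with median-of-ratios factors and 17 after rescaling without the 10 highest genes. It was 16 with a pseudocount of 0.1 or 5, 9 with a limit of TPM 1 and 5 with no limit. More genes were tested under both lower limits, and the reason for the fewer calls there was not tested. The number was 13 without the variance trend and 18 with library quality weights. Factors from genes at a mean TPM of 20 to 1000, chosen after seeing the data, gave 10, and factors without ribosomal protein genes, also chosen then, gave 16. Leaving out a library gave 5 to 11 calls, lowest without LL24 replicate 2, next without LL24 replicate 1 (7), and 9, 9 and 10 without LL36 replicates 1, 2 and 3. RPS8A, RPS10B and RPS12C were called in none of these 6 fits. Each of these fits had fewer libraries, and the reason for the fewer calls was not tested.

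Over all genes, 1366 of 3774 tested were called in the main fit, 45.8% of them higher. On TPM as deposited 126 of 789 were called, 19.8% of them higher, and on the deposited scale with factors 347 of 789. Calls numbered 2243 of 10326 without the 10 highest genes, 2343 of 9890 with a limit of TPM 1 and 2163 of 22084 with no limit. The genes tested differ between these settings, so the counts alone are not comparable. Leaving out a library gave 988 to 1194. The median log2 difference of the 40S genes was 0.20 to 0.27 without single libraries and -0.11 on TPM as deposited, where the summed level differed by -0.16, against 0.20. Without single libraries the sum differed by 0.146 to 0.217, lowest without LL24 replicate 1. Paralogue pairs that did not overlap numbered 10 to 16 of 36 without single libraries, against 9, with the most without LL36 replicate 1, and 9 with other pseudocounts. With fewer libraries, values separate more easily.

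Single differences were followed for 28 genes, the 16 called and those chosen by level, smallest difference or paralogue shift. Of these, 15 turned negative on TPM as deposited, namely RPS3A (-0.0203), RPS4B (-0.211), RPS8A (-0.0735), RPS10B (-0.0727), RPS11C (-0.189), RPS12A (-0.302), RPS13A (-0.0681), RPS13B (-0.287), RPS14A (-0.0782), RPS15aA (-0.322), RPS15aF (-0.299), RPS16C (-0.235), RPS18A (-0.05), RPS18C (-0.304) and RPS23B (-0.12). On the deposited scale with factors it was -0.0145 for RPS12A, -0.0175 for RPS13B, -0.0298 for RPS15aA, -0.0347 for RPS15aF and -0.0214 for RPS18C, and with factors from genes at 20 to 1000 it was -0.0027, -0.0067, -0.0182, -0.0255 and -0.0098 for these. RPS25E turned positive without the 10 highest genes (0.0045) and with no limit (0.0229). Without single libraries, values of changing sign ran from -0.0283 to 0.0907 for RPS12A, -0.0228 to 0.0584 for RPS15aA, -0.0635 to 0.0952 for RPS15aF, -0.106 to 0.171 for RPS18C and -0.149 to 0.0313 for RPS25E. None of these 5 genes was called.

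No pairing by replicate number is stated, and same-numbered libraries did not deviate together (correlations -0.04, -0.04 and -0.10 for replicates 1 to 3). With the replicate block 9 of the 40S genes and 1057 of all genes were called. TPM without counts leaves the precision of the low genes unknown.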
